A study of Homo sapiens with 12 samples.

Results

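Leukocyte adhesion molecules of endothelium were followed in EA.hy 926, a human cell line derived from a fusion of A549 lung carcinoma cells with umbilical vein endothelium. The set was defined as 8 named genes (ICAM1, ICAM2, VCAM1, SELE, JAM2, JAM3, MCAM and CD44), and each was read from 1 probe set, the only one that carried its symbol alone. All 8 were among the 18417 genes measured. The genes were picked by function, with earlier results of these data known.

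Lo PMX cells had been adapted to Medium 199 with its own 23 nM folic acid and then given 0.5 uM pemetrexed (PMX) for 48 h, and Lo control cells were the same culture without the drug. Hi PMX cells had been kept in parallel in medium raised to 9 uM folic acid, the usual level for this line, with the same drug exposure, and Hi control cells were their untreated counterpart. All 4 groups shared 10% fetal calf serum and confluent growth with a medium change 24 h before treatment, and each held 3 biological replicates on 1 array each. Pemetrexed is an antifolate that blocks thymidylate and purine synthesis. The Lo and Hi cells were separately kept cultures of 1 line, so a difference between them can hold other differences between the cultures, and no inflammatory cytokine was named among the treatments.

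Leukocytes leave the blood by rolling on, sticking to and crossing the endothelium. E-selectin (SELE) slows passing cells, the immunoglobulin-family proteins ICAM1, ICAM2 and VCAM1 hold them through leukocyte integrins, and junctional adhesion molecules such as JAM2 and JAM3 take part in the passage between endothelial cells. In endothelium ICAM2 is made constitutively, whereas SELE, VCAM1 and most ICAM1 are switched on by inflammatory cytokines through the transcription factor NF-kB. MCAM (CD146) is an adhesion protein of the endothelial junction, and CD44 is the main cell surface receptor of the matrix sugar hyaluronan.

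The genes around whose starts NF-kB control is best known are ICAM1, VCAM1 and SELE, and their start regions are shown for that reason. Each sequence runs 5′ to 3′ along the gene, from 250 bases before its first base to 50 bases from that base on, and comes from RefSeq on GRCh38.p14. Capitals mark matches on either strand to GGNNNTTCC, a loose form of the NF-kB site. ICAM1 lies at chr19:10270870-10271169 on the plus strand, VCAM1 at chr1:100719492-100719791 on the plus strand and SELE at chr1:169734030-169734329 on the minus strand.
ICAM1: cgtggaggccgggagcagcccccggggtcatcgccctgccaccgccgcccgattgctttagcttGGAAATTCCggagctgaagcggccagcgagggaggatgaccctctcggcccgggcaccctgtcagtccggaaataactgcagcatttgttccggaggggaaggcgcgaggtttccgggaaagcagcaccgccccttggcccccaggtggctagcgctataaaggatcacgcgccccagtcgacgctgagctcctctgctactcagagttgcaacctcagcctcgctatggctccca
VCAM1: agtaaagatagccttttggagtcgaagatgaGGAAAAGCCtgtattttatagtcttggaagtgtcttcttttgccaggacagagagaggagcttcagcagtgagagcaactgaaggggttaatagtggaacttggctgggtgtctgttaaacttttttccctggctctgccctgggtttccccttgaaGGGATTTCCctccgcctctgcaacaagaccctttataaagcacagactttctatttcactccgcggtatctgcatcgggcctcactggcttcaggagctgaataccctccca
SELE: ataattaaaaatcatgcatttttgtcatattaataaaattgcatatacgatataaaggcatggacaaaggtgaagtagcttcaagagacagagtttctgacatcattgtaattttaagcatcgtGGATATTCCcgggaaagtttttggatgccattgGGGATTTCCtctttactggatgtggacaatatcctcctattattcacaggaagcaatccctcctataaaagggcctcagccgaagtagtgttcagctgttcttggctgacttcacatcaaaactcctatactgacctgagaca

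In the ICAM1 start region the motif was found at 1 place, 186 bases before the first base, where it reads the same on both strands. VCAM1 had 2 places, at 219 and 62 bases before the start, and SELE had 2, at 126 and 93 bases. All 3 regions also held TATAAA 30 or 29 bases before the start, VCAM1 with a second match on the other strand overlapping it. The start regions of 5 of the 8 genes were matched in the RefSeq table, the other two being those of MCAM and CD44. MCAM had the NF-kB-like letters only after its start, CD44 had none in this window, and neither held TATAAA. MCAM held 5 matches to GGGCGG, the GC box, CD44 and ICAM1 had 2 each, and VCAM1 and SELE had 0. Among all 35116 RefSeq start regions of this length, 20.1% held GGNNNTTCC, 11.5% TATAAA and 45.0% GGGCGG. A match describes letters only, and factor binding was not measured. An NF-kB site spelled otherwise than GGNNNTTCC is not marked, so the places given need not be all sites.

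**Figure D1:**
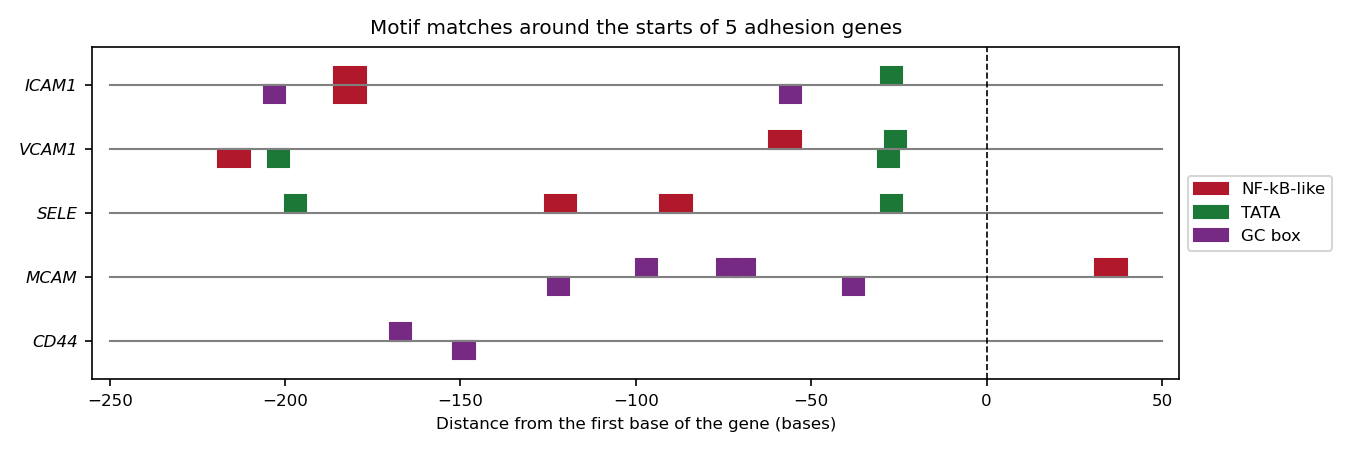
Positions of motif matches from 250 bases before to 50 bases after the first base of 5 adhesion genes (horizontal axis, bases; dashed line, first base). Boxes above a line are matches on the strand of the gene and boxes below it on the other strand. ICAM1, VCAM1 and SELE have NF-kB-like matches before the start, and MCAM and CD44 do not.

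The deposited values were log2 levels after robust multi-array averaging (RMA), a method that summarises the probes of a probe set. Array medians lay between 7.24 and 7.33. On the first principal component, with 61.1% of the variance, Lo control replicates 1 and 2 scored 7.18 and 6.75, and Lo control replicate 3 scored -19.3. Hi control replicates 1 and 2 scored -20.1 and -17.8, and Hi control replicate 3 scored 8.94. Each replicate 3 thus lay with the controls of the other folate level, against its label. Whether the 2 labels were exchanged was not tested. The labels were kept, so that every 12-array value that uses control cells rests on them. Main results of the 8 members that rest on control cells are given with all 12 arrays and with the 10 others. Values of single genes from the related lists are from 12 arrays unless 10 are named. Mean log2 levels of 15 endothelial markers ran from 5.98 (EMCN) to 12.94 (PECAM1), and CLDN5 (7.74), VWF (8.07) and FLT1 (8.42) were the other ones below 10. Those of 13 epithelial and lung carcinoma markers ran from 5.61 (NKX2-1) to 12.11 (KRT7), with KRT8 (11.78) and KRT18 (11.74) high, and CDH1 (5.78) and EPCAM (5.64) low. Those of 11 leukocyte markers ran from 4.13 (PTPRC) to 12.01 (CD68), the next highest being CORO1A (7.74) and CD14 (7.05). Those of 12 fibroblast and smooth muscle markers ran from 3.98 (DCN) to 12.84 (RGS5), the next highest being ACTA2 (11.49) and COL1A1 (8.3).

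ICAM1 was the member that responded most to pemetrexed, and it did so in low-folate cells. Its log2 level was 10.25, 10.28 and 10.12 in Lo PMX cells, against 9.27, 9.47 and 9.65 in Lo control cells. In Hi PMX cells it stood at 9.69, 9.82 and 9.60, against 9.57, 9.89 and 9.50 in Hi control cells. Every Lo PMX array was above every other array, while with all arrays the other 3 groups overlapped one another. Without replicate 3 of each control group, Lo control (9.27 to 9.47) lay below Hi control (9.57 to 9.89) and Hi PMX (9.60 to 9.82). The group means were 10.22 ± 0.09 in Lo PMX, 9.46 ± 0.19 in Lo control, 9.70 ± 0.11 in Hi PMX and 9.66 ± 0.21 in Hi control cells (SD, n = 3 each). In order of level, only the step between Lo PMX and the next group, Hi PMX, passed the test, and the neighbouring pairs Hi PMX with Hi control and Hi control with Lo control did not.

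In Lo cells the rise of ICAM1 with pemetrexed was 1.69-fold (95% interval 1.42 to 2.01), or 0.75 ± 0.12 on the log2 scale (SE; limma, Benjamini-Hochberg adjusted p = 0.00136). With the 10 arrays it was 1.80-fold (0.85 ± 0.11, adjusted p = 0.000418). Under each of the 20 alternatives ICAM1 passed here, with log2 changes from 0.66 to 0.90. In Hi cells the change was 0.05 ± 0.12 with a 95% interval of -0.21 to 0.30, so a rise of over 1.23-fold lay outside the interval. With 10 arrays this change was -0.03 ± 0.11 (95% interval -0.27 to 0.21). The response of Lo cells exceeded that of Hi cells by 0.71 ± 0.17 (limma interaction, adjusted p = 0.0307), and by 0.88 ± 0.16 with 10 arrays (adjusted p = 0.00806). With 12 arrays this interaction missed the threshold without any 1 of the Lo PMX arrays, Lo control replicates 1 or 2, Hi PMX replicates 1 or 3 or Hi control replicate 2 (adjusted p from 0.0514 to 0.0807), and without variance moderation (adjusted p = 0.105).

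**Figure D2:**
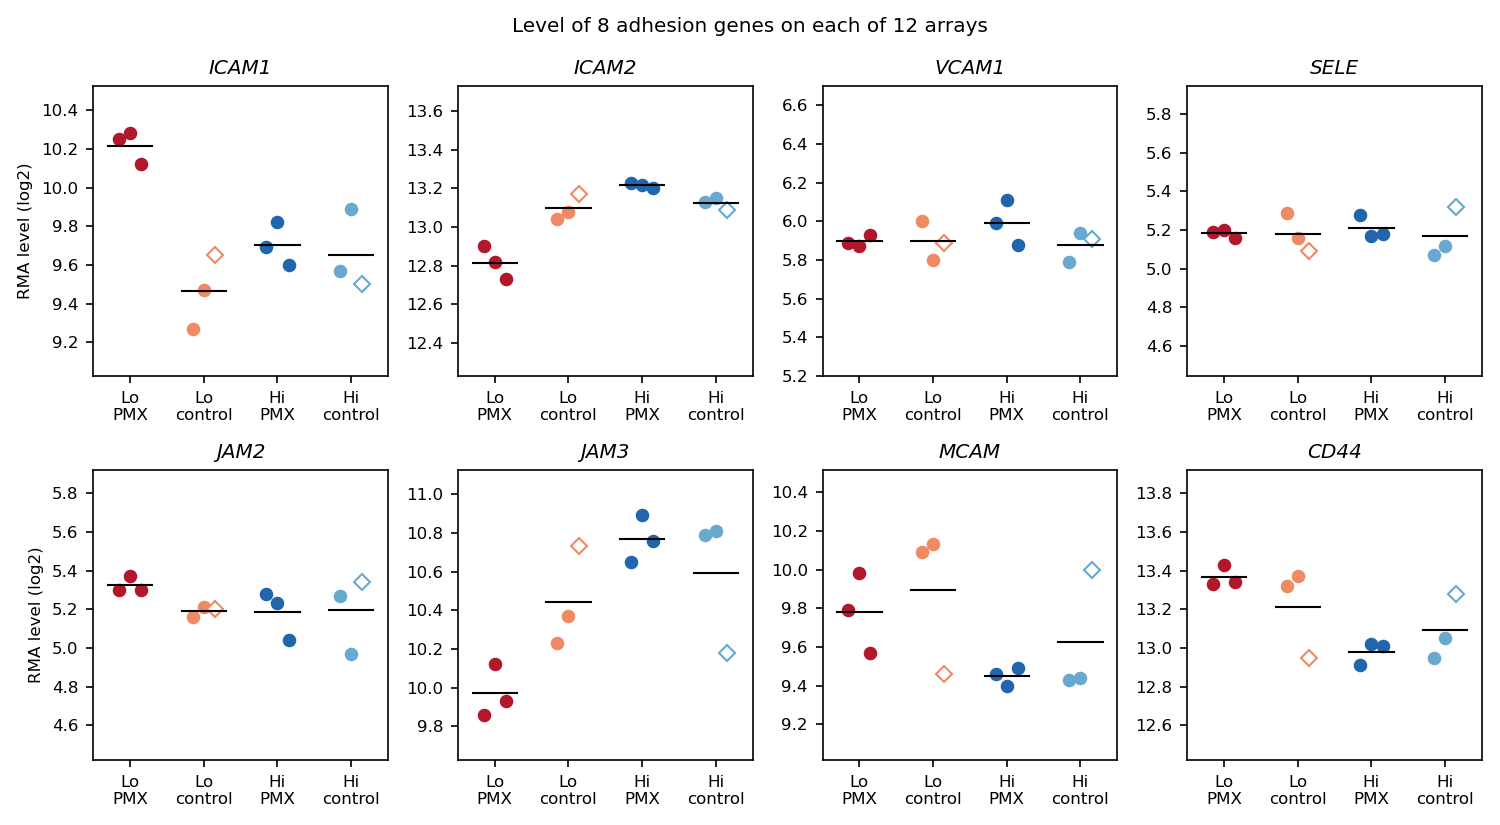
RMA log2 level (vertical axes, each spanning the same 1.5 units) of the 8 genes on every array, by group. Points are arrays, open diamonds are the 2 control arrays that stood apart from their labels, and bars are group means. ICAM1 is highest on the 3 Lo PMX arrays, ICAM2 and JAM3 are lowest there, and VCAM1 and SELE stay within 0.32 and 0.25 log2 units over all 12 arrays.

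VCAM1 and SELE, the other cytokine-inducible members, showed no such rise. VCAM1 read 5.89, 5.87 and 5.93 in Lo PMX, 6.00, 5.80 and 5.89 in Lo control, 5.99, 6.11 and 5.88 in Hi PMX and 5.79, 5.94 and 5.91 in Hi control cells. SELE read 5.19, 5.20 and 5.16 in Lo PMX, 5.29, 5.16 and 5.09 in Lo control, 5.28, 5.17 and 5.18 in Hi PMX and 5.07, 5.12 and 5.32 in Hi control cells. For both genes all 4 groups overlapped with all arrays. Without the control arrays that stood apart, SELE in Hi control cells (5.07 to 5.12) lay below SELE in Lo control cells (5.16 to 5.29). It also lay below both PMX groups. Lo control then exceeded Hi control by 0.13 ± 0.08, which did not pass (limma adjusted p = 0.503). In Lo cells the pemetrexed change of VCAM1 had a 95% interval of -0.17 to 0.17 and that of SELE -0.17 to 0.18, and changes beyond 1.13-fold upwards lay outside both. The levels exceeded 28.5% to 32.6% of probe sets on each array for VCAM1 and 19.0% to 22.1% for SELE. No detection call was used here, so whether either transcript was above background is unknown, and a log2 difference near background understates a change. Probe sets differ in brightness, so these shares order no gene against another.

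JAM2 was of the same kind, with levels above 17.8% to 23.8% of probe sets. It read 5.30, 5.37 and 5.30 in Lo PMX, 5.16, 5.21 and 5.20 in Lo control, 5.28, 5.23 and 5.04 in Hi PMX and 5.27, 4.97 and 5.34 in Hi control cells. The Lo PMX arrays were above the Lo control arrays and above the Hi PMX arrays, but the differences of 0.13 ± 0.10 and 0.14 ± 0.10 did not pass (limma adjusted p = 0.482 and 0.380).

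ICAM2, the constitutive counterpart of ICAM1 on resting endothelium, went the other way in treated Lo cells. It read 12.90, 12.82 and 12.73 in Lo PMX, against 13.04, 13.08 and 13.17 in Lo control cells. Hi PMX cells had 13.23, 13.22 and 13.20, against 13.13, 13.15 and 13.09 in Hi control cells. The 3 Lo PMX arrays were the lowest of the 12, and with all arrays Lo control and Hi control overlapped. Without replicate 3 of each control group, Lo control (13.04 to 13.08) lay below Hi control (13.13 to 13.15). That difference of -0.08 ± 0.08 did not pass (limma adjusted p = 0.706). Each Hi PMX array lay above each Hi control array, by a mean of 0.09 ± 0.07 that did not pass (limma adjusted p = 1).

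With pemetrexed in Lo cells ICAM2 changed by -0.28 ± 0.07, a 1.21-fold fall (limma adjusted p = 0.0175). The call was lost with the 10 arrays (-0.24 ± 0.07, adjusted p = 0.0550), and with 12 without Lo control replicate 3 or Lo PMX replicate 3 (up to 0.0804) or with only the compared groups (0.0538). Between treated cultures ICAM2 was 1.32-fold lower in Lo than in Hi cells (-0.40 ± 0.07, adjusted p = 0.00127). The responses of Lo and Hi cells differed by -0.37 ± 0.09 (adjusted p = 0.0429), which did not pass with 10 arrays (-0.32 ± 0.10, adjusted p = 0.129). With 1 array left out of 12, the interaction passed only without Lo control replicate 1 or Lo PMX replicate 1, with adjusted p up to 0.109 otherwise. It was lost with quantile normalization too (adjusted p = 0.0947).

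Of the 8 members, 2 passed the test between Lo PMX and Lo control cells (ICAM1 and ICAM2), where 10.7% of all genes passed, 5.60% higher and 5.14% lower. With 10 arrays 2 passed as well (ICAM1 and JAM3), beside 11.0% of all genes. The groups did not overlap for 4 members (ICAM1, ICAM2, JAM2 and JAM3), and for 29.8% of all genes. In Hi cells 0 of 8 members and 0% of all genes were called by limma, with 12 arrays and likewise, at 0%, with 10. At an unadjusted p under 0.05 the count was 0 of 8 members and 266 of 18417 genes, and limma without variance moderation also called 0. The interaction passed for 2 of 8 members and 4.81% of genes, and with 10 arrays for 1 member (ICAM1) and 4.16% of genes. The median change of the 8 members in Lo cells was 0.00, against 0.02 for all genes.

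**Figure D3:**
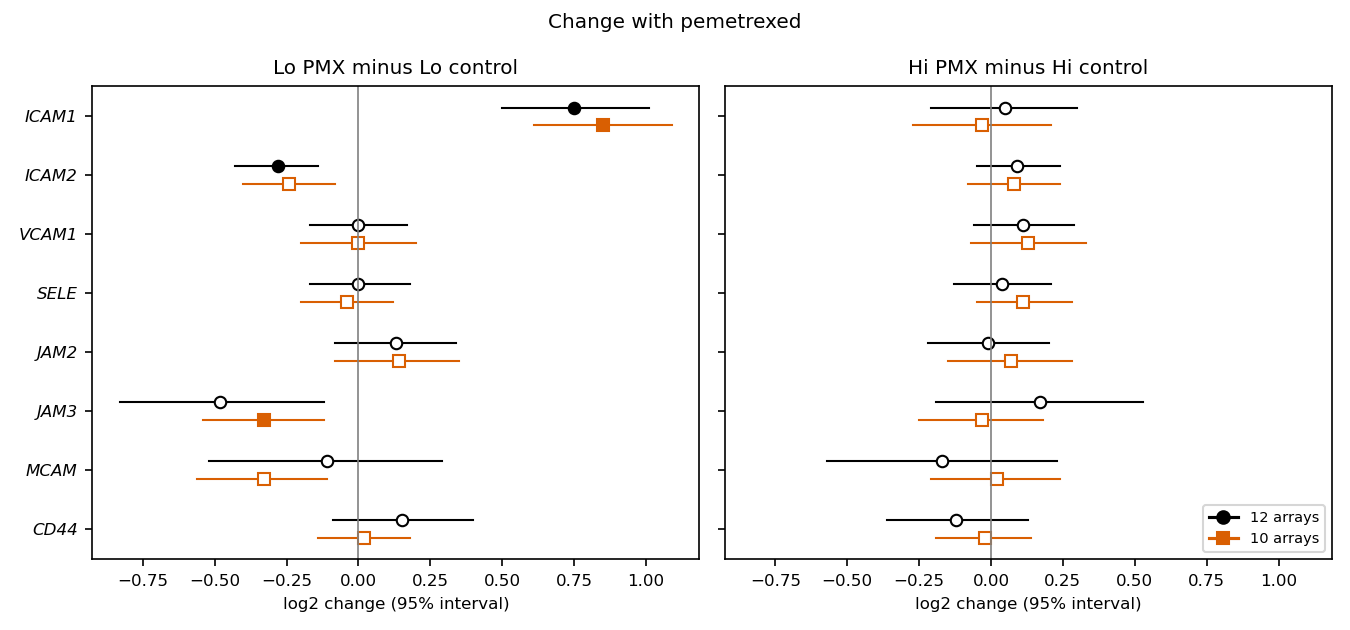
Log2 change with pemetrexed (horizontal axis, points) and 95% interval (lines) for the 8 genes in Lo cells (left) and Hi cells (right), from all 12 arrays and from the 10 arrays left after removing both control arrays that stood apart. Filled symbols passed the test at an adjusted p under 0.05. ICAM1 at 0.75 is the member farthest to the right in Lo cells, and all symbols are open in Hi cells.

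JAM3, which contributes to junctions and to leukocyte passage, separated the Lo from the Hi cultures. It read 9.86, 10.12 and 9.93 in Lo PMX cells, against 10.65, 10.89 and 10.76 in Hi PMX cells. Control levels were 10.23, 10.37 and 10.73 in Lo cells, against 10.79, 10.81 and 10.18 in Hi cells. The third value of each control group is the array that stood apart, and in both it lay on the side of the other folate level. All Lo PMX arrays were below every other array.

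Between treated cultures JAM3 was 1.74-fold lower in Lo cells (-0.80 ± 0.16, limma adjusted p = 0.00451), and it passed under all 20 alternatives. In control cells the difference was -0.15 ± 0.16 with all arrays (adjusted p = 1) and -0.50 ± 0.11 with 10 (adjusted p = 0.0135). In Lo cells pemetrexed changed JAM3 by -0.48 ± 0.16 (adjusted p = 0.0916), and by -0.33 ± 0.10 with 10 arrays (adjusted p = 0.0489). It also passed here without Hi control replicate 3 alone (adjusted p = 0.0197). The interaction did not pass (-0.65 ± 0.23, adjusted p = 0.141; with 10 arrays -0.30 ± 0.14, adjusted p = 0.335).

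CD44, the hyaluronan receptor, was higher in Lo cells. It read 13.33, 13.43 and 13.34 in Lo PMX cells, against 12.91, 13.02 and 13.01 in Hi PMX cells. Control levels were 13.32, 13.37 and 12.95 in Lo cells, against 12.95, 13.05 and 13.28 in Hi cells. The treated groups did not overlap, and in the controls the third array of each group again lay on the other side. The probe set covers many CD44 splice forms, which were not told apart.

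In treated cultures CD44 was 1.31-fold higher in Lo cells (0.39 ± 0.11, limma adjusted p = 0.0248; with 10 arrays adjusted p = 0.000826). With 12 arrays the call was lost without any 1 of the 6 PMX arrays (adjusted p from 0.0520 to 0.0818), and without variance moderation (adjusted p = 0.0651). In control cells the difference was 0.12 ± 0.11 with all arrays (adjusted p = 1) and 0.34 ± 0.08, or 1.27-fold, with 10 (adjusted p = 0.0245). Pemetrexed itself changed CD44 by 0.15 ± 0.11 in Lo cells (adjusted p = 0.472), and by 0.02 ± 0.07 with 10 arrays.

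MCAM also split the control arrays. Its levels were 10.09, 10.13 and 9.46 in Lo control cells, against 9.43, 9.44 and 10.00 in Hi control cells. Lo PMX cells had 9.79, 9.98 and 9.57, against 9.46, 9.40 and 9.49 in Hi PMX cells. The Lo PMX arrays were all above the Hi PMX arrays, and all were below Lo control replicates 1 and 2 and below Hi control replicate 3.

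With 10 arrays MCAM was 1.60-fold higher in Lo than in Hi control cells (0.68 ± 0.11, limma adjusted p = 0.00301), and with 12 the difference was 0.27 ± 0.18 (adjusted p = 1). In treated cells it was 0.33 ± 0.18 with 12 arrays (adjusted p = 0.255) and 0.33 ± 0.09 with 10 (adjusted p = 0.0181), and it passed with only the compared groups (adjusted p = 0.0389). The pemetrexed change in Lo cells was -0.11 ± 0.18 (adjusted p = 0.792), and -0.33 ± 0.10 with 10 arrays (adjusted p = 0.0612). Neither pemetrexed change passed.

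Between treated Lo and Hi cells 4 of 8 members passed (ICAM1 and CD44 higher, ICAM2 and JAM3 lower), where 22.3% of all genes did, 11.3% higher and 11.0% lower. ICAM1 was 1.43-fold higher in Lo cells there (0.52 ± 0.12, limma adjusted p = 0.00743). With 10 arrays 5 passed, MCAM being added, beside 27.7% of genes. The groups did not overlap for 6 members, all but VCAM1 and SELE, and for 37.3% of genes. In control cells 0 of 8 members and 0% of genes were called with 12 arrays, the counts at an unadjusted p under 0.05 being 0 and 387, and limma without variance moderation also called 0. No member's control groups were free of overlap, as was the case for 5.74% of genes. With 10 arrays 3 members passed in control cells (MCAM and CD44 higher, JAM3 lower), beside 7.17% of genes. The control groups then did not overlap for 6 members, all but VCAM1 and JAM2, beside 48.0% of genes. ICAM1 was lower in Lo than in Hi control cells there, at -0.36 ± 0.12 (adjusted p = 0.111). It passed with the replicate number as a block (-0.36 ± 0.08, adjusted p = 0.0117). The comparisons of Lo with Hi and of treated with control cells share arrays and are not independent.

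**Figure D4:**
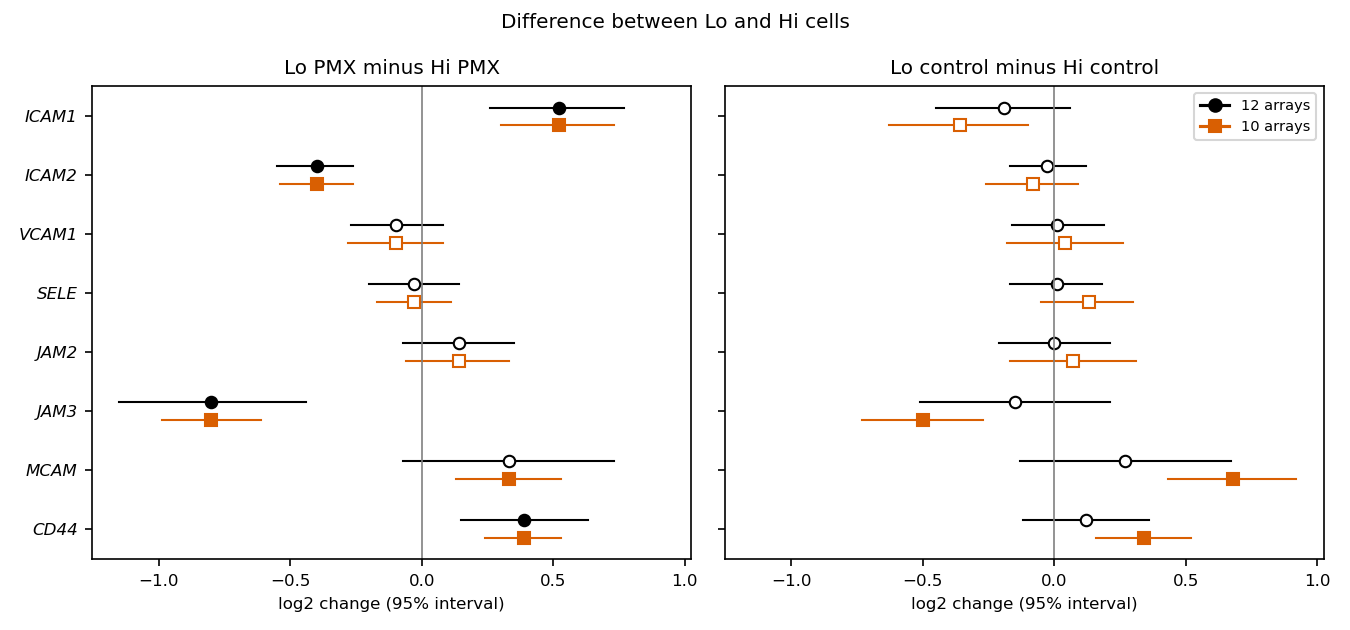
Log2 difference between Lo and Hi cells (horizontal axis, points) with 95% intervals (lines) for the 8 genes under pemetrexed (left) and in control cells (right), from 12 and from 10 arrays. Filled symbols passed at an adjusted p under 0.05. In control cells no member passes with 12 arrays, and with 10 arrays JAM3 passes at -0.50, CD44 at 0.34 and MCAM at 0.68.

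Of the lists of cell type markers, the endothelial one held the most calls. With 12 arrays 0 genes of any marker list passed with pemetrexed in Hi cells or between control cells, where 0% of all genes did. The mean log2 level of 15 endothelial markers ran from 9.54 to 9.68 on Lo PMX, 9.87 to 10.52 on Lo control, 10.50 to 10.67 on Hi PMX and 9.86 to 10.68 on Hi control arrays. Without the 2 control arrays that stood apart, the Lo control range was 9.87 to 9.93 and the Hi control range 10.47 to 10.68. Under pemetrexed 5 of the 15 fell and 0 rose in Lo cells, where 5.14% of all genes fell, with a median of -0.62. With 10 arrays 7 fell, with a median of -0.30, beside 11.0% of all genes called in either direction. With 12 arrays 3 fell without Lo control replicate 3 or Lo PMX replicate 3. For this and the later lists, the number of all genes called with 1 array left out is given in the last section. Between treated Lo and Hi cells 12 were lower and 0 higher, where 11.0% of all genes were lower. In control cells with 10 arrays 7 were lower and 1 higher in Lo cells, beside 7.17% of all genes called. The mean of 13 epithelial and lung carcinoma markers ran from 7.99 to 8.02 on Lo PMX, 7.68 to 7.93 on Lo control, 7.65 to 7.75 on Hi PMX and 7.65 to 7.97 on Hi control arrays. Without the same 2 arrays the Lo control range was 7.87 to 7.93 and the Hi control range 7.65 to 7.67. None of the 13 passed with pemetrexed in Lo cells with 12 arrays. With 10 arrays 1 rose, where 11.0% of all genes passed. Between treated Lo and Hi cells 2 were higher with 12 arrays and 4 with 10, and in control cells 3 were higher with 10 arrays, with 0 lower throughout. Of all genes 11.3% were higher between treated cells with 12 arrays. With 10 arrays 27.7% of all genes were called there and 7.17% in control cells, in either direction. Of 11 leukocyte markers 0 passed in either comparison with 12 arrays, 1 was higher between treated cells with 10, and their mean lay between 6.69 and 6.92 on all arrays. Of 12 fibroblast and smooth muscle markers 0 passed with pemetrexed in Lo cells, and 2 were higher and 0 lower in Lo than in Hi PMX cells. With 10 arrays 1 fell with pemetrexed in Lo cells, and 3 were higher in Lo cells both under pemetrexed and in controls. The shares of all genes given for the epithelial list stand beside the leukocyte and fibroblast counts too. The part of cell makeup in the differences of ICAM2, JAM3, MCAM and CD44 was not tested. Fewer cells of a kind and less RNA per cell cannot be told apart in these bulk samples.

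RNA of genes in the signalling that feeds the inducible members was read in a list of NF-kB proteins, cytokine receptors and transcription factors. Of these 28 genes 25 were measured, and the activity of the pathway was not. With pemetrexed in Lo cells 9 rose and 0 fell, where 5.60% of all genes rose and 5.14% fell, with a median of 0.14 against 0.02 for all genes. TNFAIP3, an NF-kB target that shuts the pathway off, changed by 2.27 ± 0.51 (limma adjusted p = 0.0123), and by 1.61 ± 0.11 with 10 arrays. NFKB2 (1.18 ± 0.11) and RELB (0.71 ± 0.13), the partners of the noncanonical NF-kB dimer, and RELA (0.24 ± 0.07), the main activating subunit of the classical one, also rose. The inhibitors NFKBIB (0.70 ± 0.10) and NFKBIE (0.47 ± 0.10), the interleukin 1 receptor chain IL1RAP (0.85 ± 0.22) and the transcription factors IRF1 (0.47 ± 0.10) and JUN (0.46 ± 0.07) made up the rest. NFKB1 (-0.15 ± 0.09, adjusted p = 0.386) and the classical inhibitor NFKBIA (-0.28 ± 0.11, adjusted p = 0.135) did not pass. With 10 arrays 8 rose, RELA being the one lost, beside 11.0% of all genes called in either direction. In Hi cells 0 of 25 passed, where 0% of all genes did. Between treated Lo and Hi cells 9 were higher and 1 lower, where 11.3% of all genes were higher and 11.0% lower, with a median of 0.03 against 0.01. With 10 arrays 9 were higher and 3 lower there, beside 27.7% of all genes called. In control cells with 10 arrays 2 were higher and 0 lower, beside 7.17% of all genes called. The interaction was positive for 5 (TNFAIP3, NFKB2, NFKBIB, RELB and JUN) and negative for 0, with 12 arrays and with 10. Of all genes 4.81% and 4.16% passed it, in either direction. Leaving out 1 array gave 6 to 9 that rose in Lo cells, and 4 to 6 with a positive interaction. With 10 arrays and the replicate block the interaction was positive for 8, where 1738 of all 18417 genes passed it.

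Of the other endothelial adhesion and transmigration molecules 23 of 24 were measured. In Lo cells 2 rose and 4 fell with pemetrexed, where 10.7% of all genes passed, with a median of -0.13. CDH5, ESAM and PECAM1 also stand among the endothelial markers. CEACAM1, an adhesion protein of the carcinoembryonic antigen family, rose by 1.47 ± 0.22, and PVR, the poliovirus receptor and a ligand of leukocyte CD226, by 0.77 ± 0.19. P-selectin (SELP), which endothelium stores for rapid release, changed by -0.82 ± 0.09, CD34 by -0.64 ± 0.19, CD99L2, which acts in transmigration, by -0.56 ± 0.08 and VE-cadherin (CDH5) by -0.42 ± 0.12. With 10 arrays 2 rose and 4 fell, with PECAM1 (-0.41 ± 0.08) in place of CD34, beside 11.0% of all genes called. With 12 arrays 7 fell without Hi control replicate 3. Only 2 fell without any 1 of Hi control replicate 2, Hi PMX replicate 2, Lo control replicates 1 or 3 or Lo PMX replicate 3, and 1 rose without Lo control replicate 3 or any 1 Lo PMX array. Between treated Lo and Hi cells 3 were higher and 8 lower, where 22.3% of all genes passed. Examples were CEACAM1 (1.82 ± 0.22), PVR (1.24 ± 0.19), SELP (-0.70 ± 0.09) and CD99L2 (-0.60 ± 0.08). In Hi cells 0 of 23 passed, where 0% of all genes did.

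**Figure D5:**
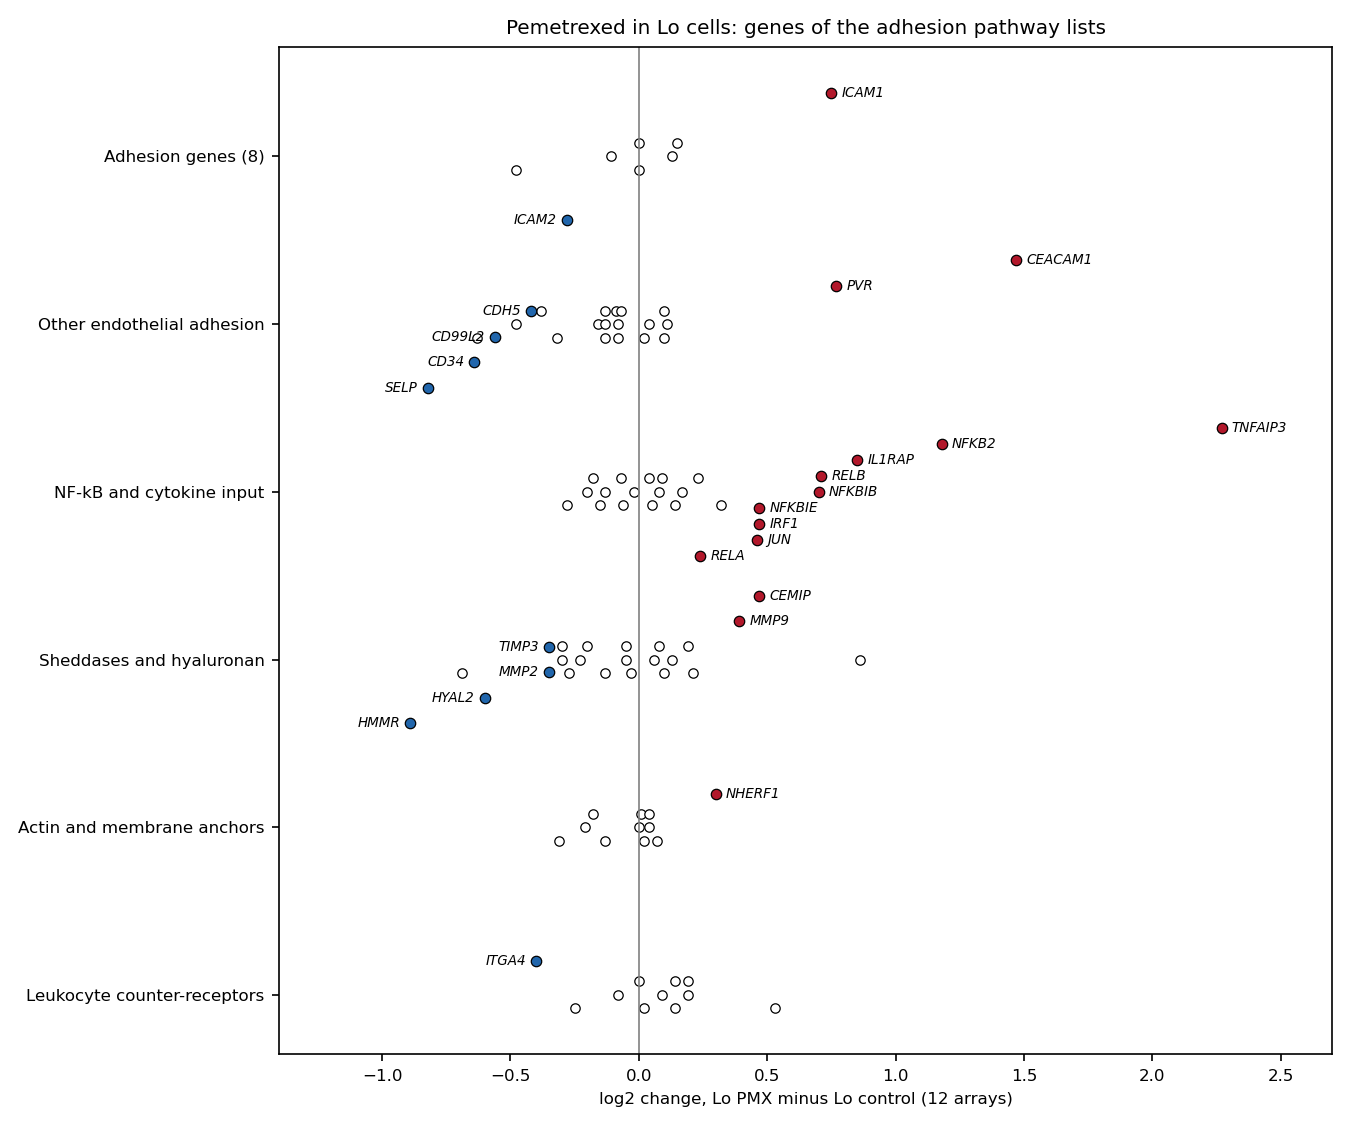
Log2 change with pemetrexed in Lo cells (horizontal axis, 12 arrays) for measured genes of 6 lists (rows), 1 point a gene. Red points passed the test and rose, blue points passed and fell, and open points did not pass; height within a row has no meaning. The list of NF-kB and cytokine input has 9 red and 0 blue points, and the 8 adhesion genes have 1 of each.

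Among sheddases and hyaluronan partners, genes that cut adhesion receptors off the cell or make, degrade or bind the ligand of CD44, 23 of 25 were measured. Pemetrexed was followed in Lo cells by 2 that rose and 4 that fell, where 10.7% of all genes passed. The hyaluronan receptor HMMR, which is also a mitotic spindle gene, changed by -0.89 ± 0.20 and the hyaluronidase HYAL2 by -0.60 ± 0.12, while CEMIP, which takes part in hyaluronan breakdown, changed by 0.47 ± 0.13 and the gelatinase MMP9 by 0.39 ± 0.09. CEMIP did not pass with 10 arrays, and 0 or 1 gene rose without any 1 Lo PMX array or Lo control replicates 2 or 3. The sheddases ADAM10 (-0.20 ± 0.09, limma adjusted p = 0.170) and ADAM17 (0.13 ± 0.11, adjusted p = 0.561) did not pass. Between treated Lo and Hi cells 4 were higher and 5 lower, where 22.3% of all genes passed. They included SPP1, the gene of the CD44 ligand osteopontin, at 2.87 ± 0.74, and the hyaluronan synthase HAS2 at -1.58 ± 0.40. In control cells with 10 arrays SPP1 (2.67 ± 0.27) and HAS2 (-1.33 ± 0.16) passed in the same directions.

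Of 14 actin and membrane anchors, proteins that tie adhesion receptors to the cytoskeleton, 11 were measured. Here 1 rose in treated Lo cells (NHERF1, 0.30 ± 0.08) and 0 fell, and with 10 arrays 0 rose and 1 fell (VCL, the gene of vinculin, -0.25 ± 0.07). These counts are close to the 10.7% and 11.0% of all genes that passed. No anchor rose without Lo control replicates 1 or 3 or Lo PMX replicates 1 or 2. MSN, the gene of moesin, which binds the tails of ICAM1 and CD44, was at -0.18 ± 0.07 and did not pass (limma adjusted p = 0.152). RDX, the gene of the related radixin, was lower in Lo than in Hi PMX cells (-0.63 ± 0.15). Of 12 leukocyte counter-receptors 11 were measured. With pemetrexed in Lo cells 0 rose and 1 fell (ITGA4, a subunit of the VCAM1-binding integrin, -0.40 ± 0.11), and 0 fell without Lo control replicates 1 or 2 or Lo PMX replicates 1 or 3. Without Hi control replicate 3, 1 rose and 2 fell. The 1 of 11 with 12 arrays is close to the 10.7% of all genes. In treated cells 3 were higher in Lo than in Hi (ITGAX 0.75 ± 0.16, SELPLG 0.42 ± 0.14 and CD96 0.27 ± 0.08) and 0 lower, and 1 was higher without Hi PMX replicates 2 or 3 or Lo PMX replicate 1. The 3 of 11 stand beside 22.3% of all genes that passed there.

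Genes with the pattern most like that of a member were sought over the 12 arrays among the 6785 genes that, like that member, spanned at least 0.5 log2 units. The arrays share groups and cultures, so the correlations describe these arrays only. For ICAM1 they were IRF1 (Pearson r = 0.954), the death receptor TNFRSF10B (0.937) and TP53INP1 (0.934). IRF1 is also one of the 25 measured genes of NF-kB and cytokine input. For ICAM2 they were the prostacyclin synthase PTGIS (0.983), the transcription factor HHEX (0.982) and the histone gene H3C2 (0.981). For JAM3 they were KAT2B (0.994), UTRN (0.991) and TLR6 (0.991). For CD44 they were ALDH1B1 (0.993), F2RL2 (0.990) and SSR3 (0.990). For MCAM they were the keratin KRT8 (0.978), ECI2 (0.971) and PTPRF (0.970). VCAM1, SELE and JAM2 spanned less than 0.5 and had no such search.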

How the data were processed

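RNA of 12 EA.hy 926 samples (RNeasy kit, Affymetrix terminal labelling, per the labels' protocols) was read on 1 array each. The authors deposited log2 levels of probe sets from RMA, with Partek 6.5, per the submitters' processing notes. The sources used here do not give further RMA settings. The table held 33297 probe sets. GEO's platform annotation gave 1 gene symbol for 19460, several for 1754 and none for 12083, and 19429 identifiers were found in RefSeq (GRCh38.p14). Genes came from probe sets with 1 symbol. For 769 genes with several, the brightest by mean over 12 arrays was taken, leaving 18417 genes; other list genes were not analysed here.

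Group means were estimated from the 12 arrays together (limma 3.58.1, R 4.3.3, lmFit and eBayes), two-sided, with Benjamini-Hochberg adjustment over all genes in each of 5 contrasts and a threshold of 0.05. Errors after a log2 change are standard errors, and the number of arrays limits precision. Since all replicates come from 1 line, p-values cover only the variation among replicates within the groups. Whether replicates were adapted separately is not stated here, so p-values between Lo and Hi cells may not cover variation among adaptations. The fit was tested on simulated data with independent noise on each array. That simulation held no pairing of replicates and no array apart from its label, so it does not cover these features. Same-numbered arrays deviated together (r above 0.1) in 11 of 18 pairs with 12 arrays. With the 10 others they did so in 13 of 13 pairs (0.115 to 0.543). The lowest r of the 18, -0.656, was between the 2 control arrays that stood apart. Fits given without the replicate block leave such pairing out. With the 10 arrays the block is given if it changes a call.

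Members and lists were chosen with earlier results of these data known. Named were the 8 members, a fixed set of related genes, up to 4 called genes a list with the smallest p, and the 3 genes most like each member; outside that rule, and chosen after their values were seen, are CD34, CDH5, CEMIP, IL1RAP, NFKBIE, SPP1 and VCL, and the markers of cell types given by level. Alternatives were quantile normalization, no variance moderation, a filter on dim genes, the mean of a gene's probe sets, only the compared groups, the replicate block, each array left out, and both arrays that stood apart left out, with and without the block.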

Additional observations from a re-analysis of the deposited data

Results flagged for a closer look

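The response of ICAM1 to pemetrexed differed between Lo and Hi cells by a test of the difference itself, at 0.71 on the log2 scale (positive where Lo cells rose more; limma interaction, adjusted p = 0.0307). The same test gave -0.37 for ICAM2 (adjusted p = 0.0429). Without the 2 control arrays that stood apart from their labels the ICAM1 difference was 0.88 (adjusted p = 0.00806) and the ICAM2 difference -0.32 (adjusted p = 0.129).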

How the results depend on the processing

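The 40 changes of the 8 members were recomputed under up to 20 alternatives each, 777 values in all, of which 729 kept their side of the threshold, 35 lost a call, 13 gained one and 0 called values changed sign. With 1 array left out the genes called ran from 1170 to 2563 for pemetrexed in Lo cells and from 443 to 956 for the interaction, and the members called from 1 to 3 and from 0 to 1. Counts of list genes given above with 1 array left out stand, in these comparisons, beside these ranges out of 18417 genes. Without variance moderation 1262 and 291 genes were called in these comparisons, and 1 member for the interaction, ICAM1 missing the threshold there (adjusted p = 0.105). Members called for the interaction were also 1 with quantile normalization, with the replicate block, and without both arrays that stood apart, with or without the block. With only the compared groups 1 member was called for pemetrexed in Lo cells. Without both arrays that stood apart 1320 genes and 3 members were called in control cells, where 0 were with all arrays; the arrays' positions are given above, and the cause was not tested. With the block added 2422 genes and 4 members were called there, 3385 genes for pemetrexed in Lo cells, 6554 for Lo against Hi PMX cells and 1738 for the interaction. With 12 arrays the replicate block lost the ICAM2 interaction (adjusted p = 0.0547) and changed no other call of a member. Under the filter on dim genes VCAM1, SELE and JAM2 were not tested. Of 1782 counts over the related lists 1614 stayed within 1.5 times.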
